A study of Arabidopsis thaliana with 4 samples.

Results

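The genes described here are 24 genes of the Arabidopsis plastid genome, most of which serve gene expression and housekeeping in the organelle. The exceptions are ycf3 and ycf4, which enter by name and encode assembly factors of photosystem I. They were set by a rule on annotation, which was chosen with earlier results of these data known. The rule takes probe sets whose only listed gene lies on the plastid genome. The symbol of that gene must begin with rpl, rps, rpo, matK, accD, clpP or ycf. Of the 32 plastid gene symbols that meet the name rule, 24 had such a probe set, 1 each, among 13355 distinct genes that a probe set names alone. They are 4 polymerase genes, 7 genes of the large and 8 of the small ribosomal subunit, and 5 others. A further 6 symbols (rps12, rpl2, rpl23, rps7, ycf1 and ycf2) had probe sets listing both repeat copies of the gene and are not members, and 2 symbols were not analysed here.

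Plastids keep a small genome of their own, left from a cyanobacterial ancestor. It is read by a bacterial-type RNA polymerase, whose core subunits are plastid genes and whose sigma factors are nuclear, and by a phage-type polymerase encoded in the nucleus, which transcribes among others the rpoB operon, accD and ycf2. Plastid mRNAs are translated on bacterial-type ribosomes that mix plastid and nuclear gene products. In roots most plastids are non-green and carry out fatty acid and amino acid synthesis and starch storage.

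RNA was measured on 4 ATH1 arrays, 2 per group. In the first group, called sorted protoplasts here, Columbia seedling roots had been freed of their cell walls and the released cells passed through a cell sorter that kept all of them. In the second group, called whole roots, the roots were harvested intact. All roots in both groups came from seedlings 6 days after germination and had spent 1 hour on medium with 140 mM NaCl, so no array shows roots without salt. The comparison asks what protoplasting and sorting do to transcript levels. The labels do not state whether replicates were grown separately, so the p-values cover the spread between these samples only, and that spread may be technical.

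Signals are MAS5 intensities, scaled by the authors to the same trimmed mean of about 250.02 on every array. Of all 22746 probe sets tested, limma called 394 higher and 137 lower in sorted protoplasts, with a threshold of 0.05 on the adjusted p. With arrays scaled on 18 hybridization spike-in probe sets these were 255 and 238, and the median log2 difference of all probe sets was -0.42 instead of -0.11. The root hair markers EXPA7 and EXPA18, the 2 measured of 4 listed, had summed signals of 281.8 and 372.1 in sorted protoplasts and 1347.5 and 1812.4 in whole roots. EXPA18 fell by 2.39 ± 0.30 on the log2 scale (SE, limma adjusted p = 0.0210), and EXPA7 had -1.95 (limma adjusted p = 0.0553). The xylem marker IRX15, 1 measured of 2 listed, had signals of 218 and 128 in sorted protoplasts and 54.8 and 47.2 in whole roots, a log2 difference of 1.46 (limma adjusted p = 0.113), and the stele marker LHW had 0.04. LHCB4.1 and RCA, the 2 measured of 5 genes of green tissue, had summed signals of 278.8 and 142.0 in sorted protoplasts and 319.9 and 437.3 in whole roots. None of these markers was at 0, and the part of a changed cell mix in the results below was not tested.

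Transcripts of the 24 genes were higher in sorted protoplasts. All 24 had both sorted-protoplast arrays above both whole-root arrays, a pattern that 18.6% of all probe sets showed. None of the 24 had the opposite order, which 32.7% of all probe sets showed. In limma's test 16 of the 24 rose, where 1.73% of all probe sets were called higher, and 0 fell, where 0.602% were called lower, with 23 higher and 0 lower at an unadjusted p under 0.05. That unadjusted p was met by 19.3% of all probe sets, as 8.45% with a positive and 10.8% with a negative difference. The log2 differences in signal plus 16 ranged from 0.69 to 5.23 with a median of 2.88, while the median over all probe sets was -0.11. Because each sample is bulk RNA, a larger share of plastid-rich cells and more plastid RNA per cell cannot be told apart. The signals also do not measure total plastid RNA, as the amplification generally primes from poly(A) tails, which few plastid transcripts carry stably. The part of a change in such tails was not tested.

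The calls depended on which arrays set the spread. The test put the median log2 difference of the 24 at 3.46 without sorted-protoplast replicate 1 and at 2.46 without sorted-protoplast replicate 2. Without whole-root replicate 1 it called 0 of the 24, and without whole-root replicate 2 also 0, as it did over all probe sets, although 22 members had an unadjusted p under 0.05 in each of these 2 fits. The share of all probe sets with such a p was 11.7% without whole-root replicate 1 and 14.5% without whole-root replicate 2. All 24 differences were positive in each of these 4 fits, as they had to be, since the groups overlapped for none of the 24.

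**Figure D1:**
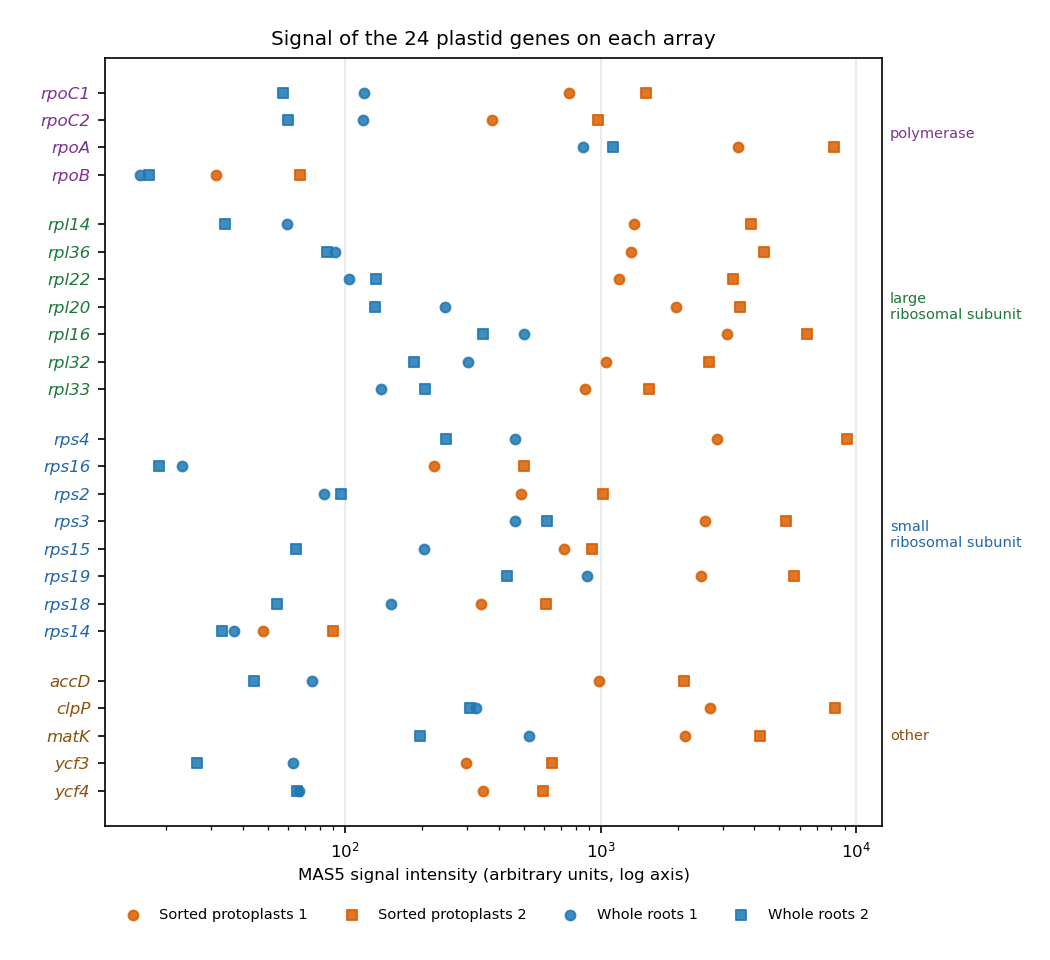
MAS5 signal intensity (log axis) of the 24 plastid genes, with 1 point per array: sorted protoplasts in orange, whole roots in blue, circles for replicate 1 and squares for replicate 2. In every row both orange points lie to the right of both blue points, and the orange square lies to the right of the orange circle.

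The core of the bacterial-type polymerase is made of an alpha subunit from rpoA, a beta subunit from rpoB, and a beta' subunit split between rpoC1 and rpoC2. Of these 4 genes only rpoC1 rose, and all 4 had an unadjusted p under 0.05, as 19.3% of all probe sets did. Its signal was 750 and 1507 in sorted protoplasts, against 119 and 57.1 in whole roots. The log2 difference was 3.44 ± 0.47 (SE, limma adjusted p = 0.0258).

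The gene next to it, rpoC2, had signals of 378 and 980 in sorted protoplasts and 117 and 59.8 in whole roots. Its log2 difference of 2.64 (95% interval 1.36 to 3.91) did not pass, with a limma adjusted p of 0.0642. rpoA had 3434 and 8181 in sorted protoplasts and 855 and 1118 in whole roots, a log2 difference of 2.42 (95% interval 1.27 to 3.57, limma adjusted p = 0.0630). Both genes were thus well separated between the groups, and their sorted-protoplast arrays differed by 2.60-fold for rpoC2 and 2.38-fold for rpoA.

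rpoB stood apart from the other polymerase genes by its low signal. It had 31.4 and 66.5 in sorted protoplasts and 15.8 and 17.1 in whole roots, where it lay at about the offset of 16 that was added before taking logs. Its log2 difference was 0.95 (95% interval 0.07 to 1.82, limma adjusted p = 0.228), and the ratio of its mean signals was 2.97. At such signals a log2 difference understates the ratio.

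The 7 genes of the large ribosomal subunit had log2 differences from 2.67 to 5.23, and 6 of them rose. rpl14, whose protein lies at the interface with the small subunit in bacterial ribosomes, had the highest difference of the 24. Its signal was 1353 and 3863 in sorted protoplasts and 59.4 and 33.9 in whole roots. The lower sorted-protoplast array was thus 22.8-fold above the higher whole-root array, and the gene rose by 5.23 ± 0.53 on the log2 scale (SE, limma adjusted p = 0.0139). Among all 22746 probe sets this difference ranked at position 9.

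rpl36 encodes a very small protein of the large subunit. It had signals of 1317 and 4367 in sorted protoplasts and 91.7 and 84.9 in whole roots, and rose by 4.54 ± 0.56 on the log2 scale (SE, limma adjusted p = 0.0208). The whole-root arrays lay close together for this gene, and the sorted-protoplast arrays differed 3.32-fold, the widest such gap among the 24.

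rpl22 encodes a protein that lines the peptide exit tunnel of bacterial ribosomes. Its signal was 1179 and 3301 in sorted protoplasts and 103 and 132 in whole roots, and it rose by 3.90 ± 0.51 on the log2 scale (SE, limma adjusted p = 0.0225). rpl20, an early assembly protein in Escherichia coli, had 1981 and 3505 in sorted protoplasts and 246 and 131 in whole roots and rose by 3.76 ± 0.43 (SE, limma adjusted p = 0.0180). rpl16, whose protein sits near the tRNA sites in bacteria, had 3122 and 6415 in sorted protoplasts and 503 and 346 in whole roots and rose by 3.37 ± 0.44 (SE, limma adjusted p = 0.0224). For each of these genes the groups were separated by at least 6.20-fold between their nearest arrays.

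rpl33, whose product tobacco plants can do without except in the cold, rose by 2.67 ± 0.39 on the log2 scale (SE, limma adjusted p = 0.0303). Its signal was 871 and 1543 in sorted protoplasts and 139 and 205 in whole roots. The seventh gene, rpl32, had nearly the same difference, 2.74 (95% interval 1.52 to 3.95), but with a limma adjusted p of 0.0533 it did not pass. Its signals were 1051 and 2663 in sorted protoplasts and 303 and 186 in whole roots, so each group spread more than for rpl33 in proportion.

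The 8 genes of the small subunit had log2 differences from 0.69 to 3.86, and 4 of them rose. rps4, a protein that starts small subunit assembly in bacteria, had signals of 2861 and 9177 in sorted protoplasts and 462 and 248 in whole roots. It rose by 3.86 ± 0.60 on the log2 scale (SE, limma adjusted p = 0.0367). The SE was the largest of the 24, and its sorted-protoplast arrays differed 3.21-fold.

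rps16, a gene with an intron, had signals of 223 and 502 in sorted protoplasts and 23.1 and 18.8 in whole roots, and rose by 3.25 ± 0.45 (SE, limma adjusted p = 0.0272). rps2 had 486 and 1023 in sorted protoplasts and 82.5 and 96.4 in whole roots and rose by 2.78 ± 0.42 (SE, limma adjusted p = 0.0327). rps3, whose protein lines the mRNA entry of bacterial ribosomes, had 2560 and 5308 in sorted protoplasts and 462 and 619 in whole roots and rose by 2.75 ± 0.43 (SE, limma adjusted p = 0.0367). In each of them the groups lay at least 4.14-fold apart at their nearest arrays.

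Among the 4 small subunit genes that did not pass, 3 had log2 differences between 2.13 and 2.65. rps15, which tobacco plants can also do without, had signals of 722 and 929 in sorted protoplasts and 204 and 64.4 in whole roots, a log2 difference of 2.65 (95% interval 1.43 to 3.88, limma adjusted p = 0.0591). rps19 had 2460 and 5697 in sorted protoplasts and 884 and 430 in whole roots, a log2 difference of 2.57 (95% interval 1.29 to 3.85, limma adjusted p = 0.0673). rps18 had 341 and 614 in sorted protoplasts and 152 and 54.3 in whole roots, a log2 difference of 2.13 (95% interval 0.89 to 3.37, limma adjusted p = 0.0942). In these genes the whole-root arrays differed from each other by 2.06-fold to 3.17-fold.

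The smallest difference of the 24 belonged to rps14, a gene that lies next to the photosystem I genes psaB and psaA. Its signal was 47.9 and 89.7 in sorted protoplasts and 37.0 and 33.0 in whole roots. The groups did not overlap but came within 1.30-fold of each other. The log2 difference was 0.69 with a 95% interval from -0.23 to 1.61 (limma adjusted p = 0.386). rps14 and rpoB were also the 2 members that a filter on low mean signal, at about 51.3, would leave out. With that filter all 22 remaining members were called higher and 0 lower, where limma called 6.38% of all probe sets higher and 4.11% lower; members could pass the filter through their signal in sorted protoplasts.

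All 5 members outside the polymerase and the ribosome rose. accD encodes the plastid subunit of acetyl-CoA carboxylase, which starts fatty acid synthesis. Its signal was 989 and 2121 in sorted protoplasts and 74.6 and 43.9 in whole roots, and it rose by 4.31 ± 0.45 on the log2 scale (SE, limma adjusted p = 0.0139). Its nearest arrays lay 13.3-fold apart, and among the 24 only rpl14 and rpl36 had higher differences and wider separations.

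clpP encodes a proteolytic subunit of the plastid Clp protease. It had signals of 2672 and 8256 in sorted protoplasts and 324 and 309 in whole roots, and rose by 3.82 ± 0.54 (SE, limma adjusted p = 0.0281). matK, a maturase for splicing plastid introns, had 2137 and 4219 in sorted protoplasts and 525 and 197 in whole roots, and rose by 3.15 ± 0.55 (SE, limma adjusted p = 0.0465). The 2 genes differed in where they varied. For clpP the sorted-protoplast arrays were 3.09-fold apart and the whole-root arrays 1.05-fold, and for matK the gaps were 1.97-fold and 2.66-fold.

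ycf3 and ycf4 encode assembly factors of photosystem I. ycf3 had signals of 299 and 643 in sorted protoplasts and 62.6 and 26.3 in whole roots, and rose by 2.98 ± 0.50 (SE, limma adjusted p = 0.0426). ycf4 had 346 and 595 in sorted protoplasts and 66.0 and 65.1 in whole roots, and rose by 2.53 ± 0.37 (SE, limma adjusted p = 0.0300). ycf4 had the smallest difference among the 16 genes called, and its whole-root arrays were nearly equal.

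**Figure D2:**
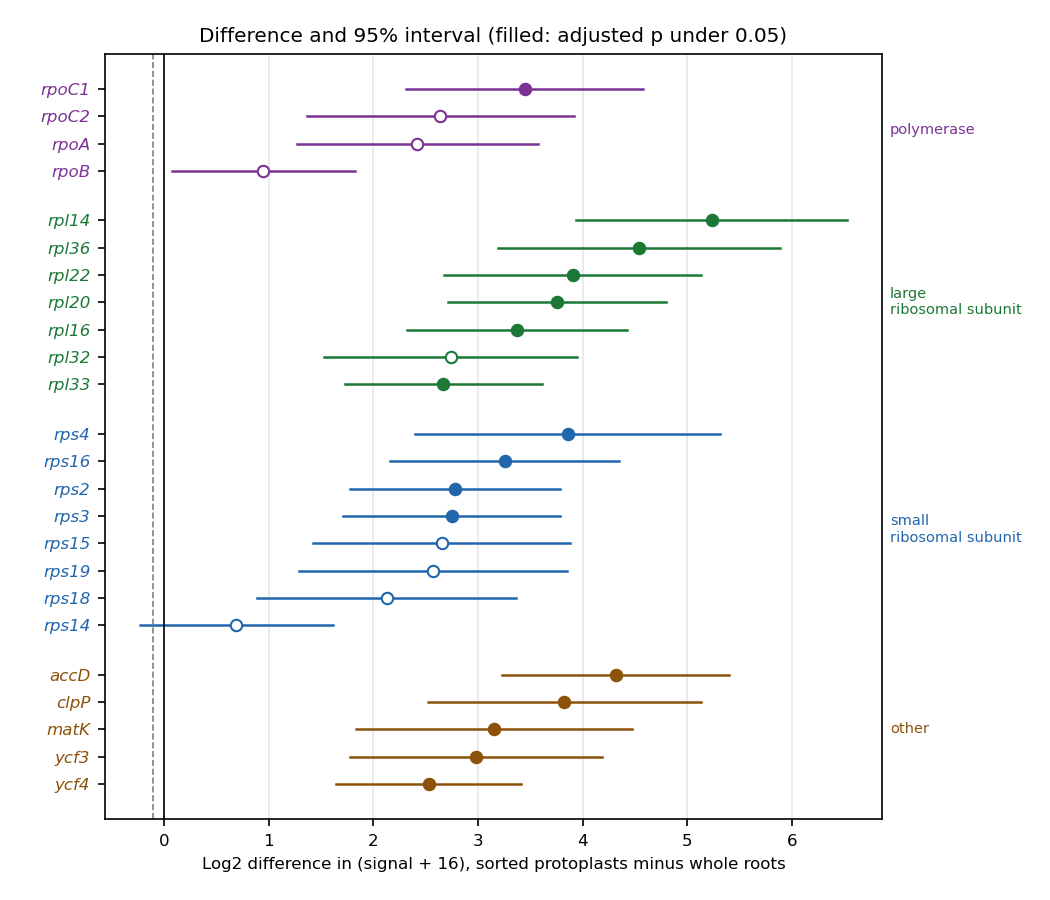
Log2 difference in signal plus 16, sorted protoplasts minus whole roots, with its 95% interval from limma for each of the 24 genes, ordered within class. Filled points passed at an adjusted p under 0.05, and the dashed line marks the median of all probe sets at -0.11. The interval of rps14 includes 0, and the other 23 lie above it.

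By class, the median log2 difference was 2.53 for the 4 polymerase genes, 3.76 for the 7 large subunit genes, 2.70 for the 8 small subunit genes and 3.15 for the 5 others. The ranges overlapped: 0.95 to 3.44 for polymerase genes, 2.67 to 5.23 for large subunit genes, 0.69 to 3.86 for small subunit genes and 2.53 to 4.31 for the others. No test between classes was made. The spread of a class median between replicate arrays was 0.55 to 0.72 on the log2 scale. Sorted-protoplast replicate 2 was above replicate 1 for all 24 genes, so part of this spread is shared by the classes. It therefore does not measure the precision of a gap between class medians. With 1 array left out in turn, the large subunit median stayed between 3.17 and 4.17 and the small subunit median between 2.24 and 3.22. The lowest values of both came from the same fit, and so did the highest.

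The other 45 plastid genes with a probe set of their own, which serve photosynthesis, the NDH complex and related functions, had log2 differences from 0.33 to 4.54 with a median of 2.25. Of these 17 rose and 0 fell, and 41 had both sorted-protoplast arrays above both whole-root arrays. The 7 probe sets that list both repeat copies had differences from 2.36 to 5.19 with a median of 3.31, and 4 of them were called higher. The range of the 24 genes lay mostly within that of the other plastid genes, with rpl14 above it.

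**Figure D3:**
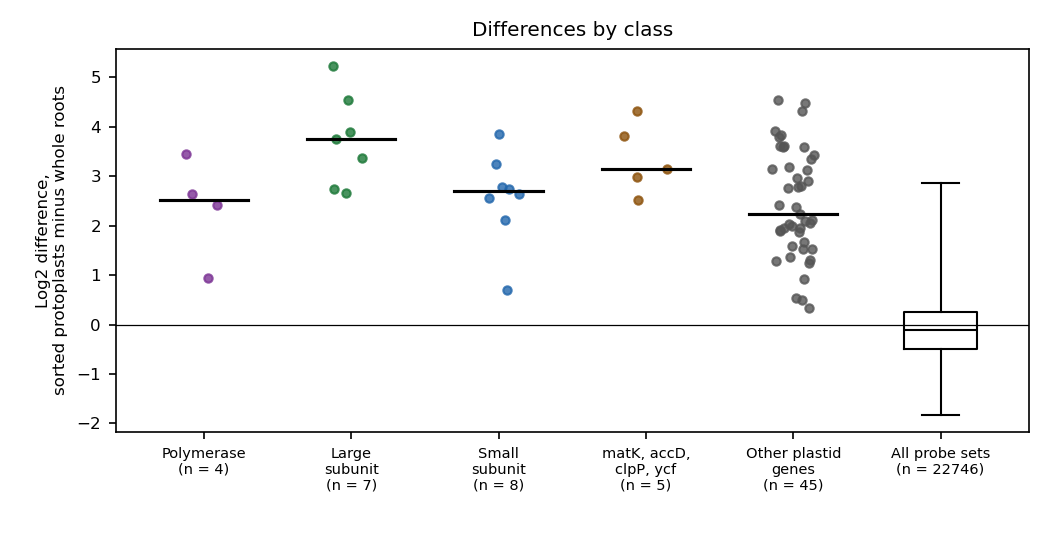
Log2 differences, sorted protoplasts minus whole roots, by class, with 1 point per gene and a bar at the median. The box for all 22746 probe sets spans the quartiles, and its whiskers reach from percentile 1 to percentile 99. The medians are 2.53, 3.76, 2.70 and 3.15 for the 4 classes and 2.25 for the other plastid genes.

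Several members are neighbours in the plastid gene order of the TAIR10.1 RefSeq table, which gives no strand in the version used here. The longest run starts at rpoA, holds rpl36, rpl14, rpl16, rps3, rpl22 and rps19 in that order, and ends with rpl2 and rpl23, a cluster that is read as an operon in land plants. Its 7 members had a median log2 difference of 3.37, and 5 of them rose. Differences within the run were 2.42 for rpoA at one end, 5.23 for rpl14 in the middle and 2.57 for rps19 near the other end. The genes with the highest 2 differences of all, rpl14 and rpl36, both lie in this run.

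The run of rps2, rpoC2, rpoC1 and rpoB had log2 differences of 2.78, 2.64, 3.44 and 0.95 in gene order. rpoB, which is transcribed first in that operon as described in plants, thus had the lowest value next to the highest. Whether rpoB differs from rpoC1 was not tested, and its signal near the offset lowers its log2 difference. In the run of rpl33, rps18, rpl20, rps12 and clpP, the 4 members had 2.67, 2.13, 3.76 and 3.82. Differences between neighbouring genes were not tested.

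**Figure D4:**
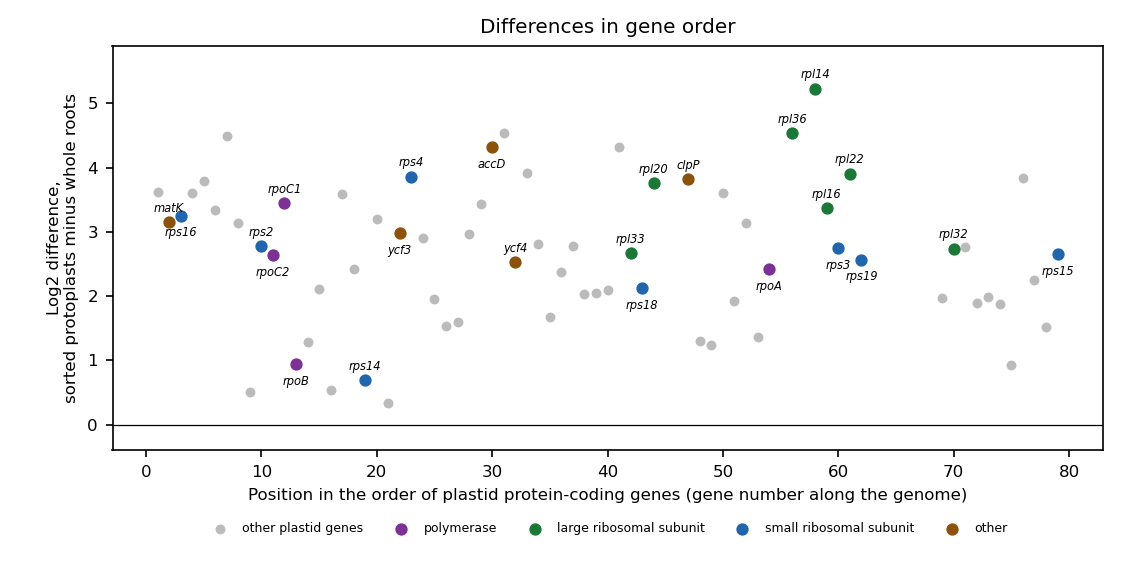
Log2 difference, sorted protoplasts minus whole roots, of plastid genes by their place in the order of protein-coding genes along the plastid genome. Members are coloured by class and the other 45 genes are grey. Within the run that starts at rpoA the values are 2.42 at rpoA, 5.23 at rpl14 and 2.57 at rps19.

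The spread within the sorted protoplasts had a common direction. Replicate 2 was above replicate 1 for all 24 genes, where 49.6% of all probe sets had that order, and the median ratio of the 2 arrays was 2.13, with a range from 1.29 for rps15 to 3.32 for rpl36. Over all probe sets the median ratio was 0.995. In whole roots replicate 1 was above replicate 2 for 18 of the 24 genes, with a median ratio of 1.54 and a range from 0.677 to 3.17, and 47.0% of all probe sets had that order.

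Control signals also differed between the arrays. The 25S ribosomal RNA control had 5388 and 9658 in sorted protoplasts and 4329 and 2809 in whole roots, the same array order as the median of the 24 genes. The mean log2 signal of the spike-ins was likewise highest on sorted-protoplast replicate 2 and lowest on whole-root replicate 2, with 9.32 and 9.99 in sorted protoplasts and 9.42 and 8.96 in whole roots. The ratio of 3' to 5' signal, a sign of RNA quality, was 3.45 and 9.96 for GAPDH in sorted protoplasts and 15.02 and 4.56 in whole roots. In each group it was higher on the array where most of the 24 genes were higher. It had the same order for ubiquitin, with 3.25 and 4.54 in sorted protoplasts and 4.92 and 3.24 in whole roots. For actin, on the control pair used here, it had the opposite order in sorted protoplasts. It was 41.5 and 27.2 there and 29.1 and 19.1 in whole roots. The 5' signal of this pair was low, between 61.8 and 102 on the 4 arrays. A second actin pair had 3' signals of 4571 and 3687 in sorted protoplasts and 3151 and 2924 in whole roots. Its 5' signals were 537 and 308 in sorted protoplasts and 142 and 416 in whole roots. The ratio of this second actin pair thus had the same order as GAPDH in both groups. A second GAPDH pair had 3' signals of 2995 and 3180 in sorted protoplasts and 3506 and 3780 in whole roots. Its 5' signals were 1876 and 1675 in sorted protoplasts and 612 and 2065 in whole roots. Its ratio had the same order, but the sorted-protoplast arrays lay much closer together than for the first GAPDH pair. The part of RNA quality in the results was not tested. With arrays scaled on the spike-ins the median difference of the 24 genes was 2.48, and 14 were called higher, where 1.12% of all probe sets were. The part of the ribosomal RNA level in the result was not tested.

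To see how the members moved against their own genome, each array was centred on the median log2 signal of the other 45 plastid probe sets. The median gap between the sorted-protoplast arrays over the 24 genes was 0.26 on the log2 scale after centring and 1.06 before. In whole roots it was 0.55 after and 0.56 before. The member median exceeded the other plastid genes' median by 0.97 and 0.91 in sorted protoplasts and by 0.34 and 0.55 in whole roots, with no overlap between the groups. These centred values are a description without a test.

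Against these array medians, 9 of the 24 genes were higher in both sorted-protoplast arrays than in both whole-root arrays, 8 were lower and 7 overlapped. Of the other 45 plastid genes themselves, 9 were higher and 27 lower by the same measure. Their array medians were 9.05 and 10.32 in sorted protoplasts and 6.84 and 6.18 in whole roots. That shift is larger than their median log2 difference per gene, 2.25. Lower by this measure thus does not mean a smaller rise than most other plastid genes. For example, rpl32 and rpoA counted as lower with uncentred differences of 2.74 and 2.42. The centred log2 difference was 2.06 for rpl14, 1.36 for rpl36 and 1.14 for accD. For rpl14 the centred values were 1.37 and 1.60 in sorted protoplasts and -0.60 and -0.54 in whole roots, so that its replicates lay within 0.23 of each other. At the other end rps14 had -2.48 and rpoB -2.23, and rps18 had -1.05. In whole roots the signals of rps14 were 37.0 and 33.0 and those of rpoB 15.8 and 17.1. At such signals the offset of 16 understates a rise, so the centred differences of these 2 genes are lowered by it. Centring removed most of the gap between the sorted-protoplast arrays but left centred differences between -2.48 and 2.06 among the members.

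**Figure D5:**
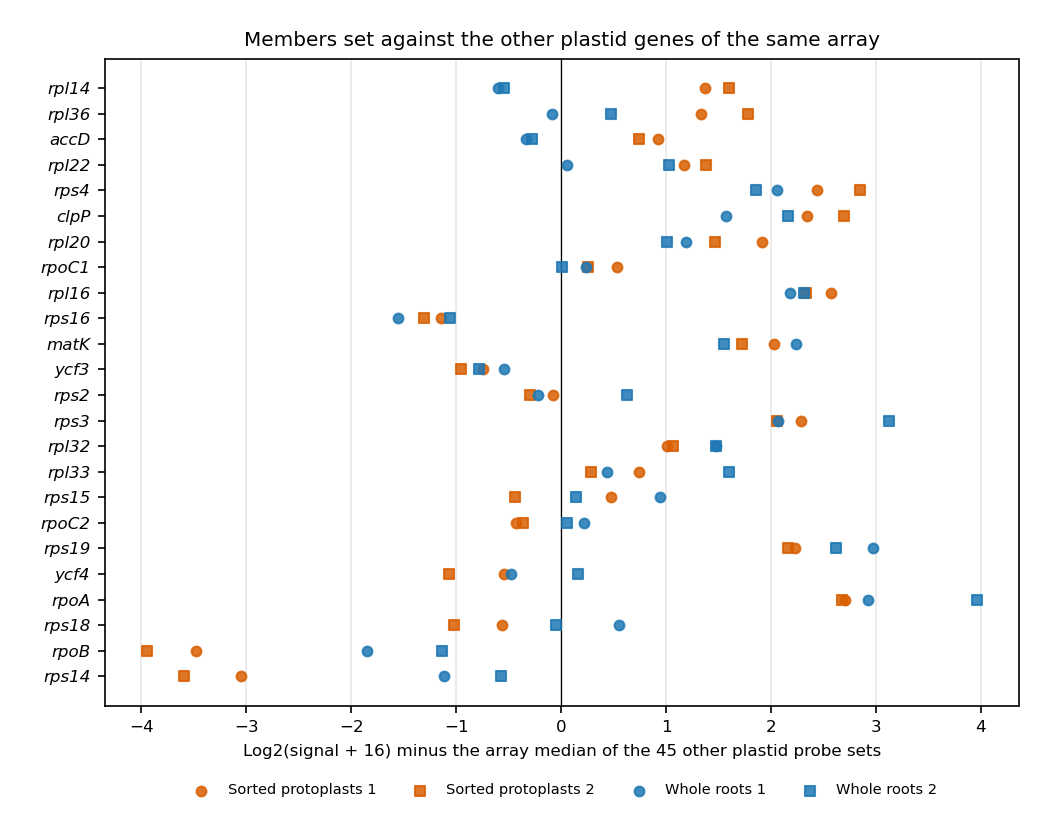
Log2 signal plus 16 of each member minus the median of the 45 other plastid probe sets on the same array, sorted protoplasts in orange and whole roots in blue, ordered by the difference between the groups. Only distances within a row carry meaning. rpl14, rpl36 and accD lie to the right in sorted protoplasts, and rps14 and rpoB to the left. The low signals of rps14 and rpoB lie where the offset understates a rise.

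The nuclear genes that work with these plastid genes could be measured only in part. Of 82 listed nuclear genes for plastid polymerases and sigma factors, polymerase-associated proteins, plastid ribosomal proteins, Clp subunits and acetyl-CoA carboxylase subunits, 15 were named alone by a probe set. In limma's test 0 of these 15 rose and 0 fell, with 2 at an unadjusted p under 0.05, a share no higher than the 19.3% of all probe sets. The log2 differences ranged from -1.05 to 0.34 with a median of -0.62. The 10 nuclear genes for plastid ribosomal proteins had differences from -1.05 to -0.21. With arrays scaled on the spike-ins 0 of the 15 rose and 0 fell as well.

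The reference tables give most of these nuclear genes by locus only. One with a symbol is CLPP4, a nuclear Clp protease subunit. Its signal was 212 and 197 in sorted protoplasts and 273 and 393 in whole roots, a log2 difference of -0.64 that did not pass (limma adjusted p = 0.341). Its plastid-encoded partner clpP had a difference of 3.82. Of the green tissue genes, LHCB4.1 had a log2 difference of -0.97 (limma adjusted p = 0.345) and RCA one of -0.65 (limma adjusted p = 0.372), neither past the threshold, while all 24 plastid genes had positive ones.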

How the data were processed

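The authors deposited 1 signal intensity, on a linear scale, for every probe set of each array. MAS5 is named in the submitters' processing notes, with no version. RNA was amplified in 2 cycles, per the labels' protocols. As generally used, that protocol primes from poly(A) tails, which few plastid transcripts carry stably, so signals do not measure total plastid RNA.

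Probe sets were named through the platform annotation and the TAIR10.1 RefSeq table. Of 22746 probe sets that are not controls, the annotation gives 1 gene for 13513 and several for 503, and does not list 8730. Near-identical nuclear or mitochondrial copies cannot be told apart on these arrays. No sequences or coordinates are given, since no sequence tables were used and no build is named for the array.

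Signals were transformed as log2(signal + 16), which understates differences at low signal, with no signal filter. limma 3.58.1 in R 4.3.3 compared sorted protoplasts with whole roots over all probe sets, with Benjamini-Hochberg adjusted p under 0.05. It used lmFit and eBayes with a trended prior variance and had 2 residual degrees of freedom. The fit was run on simulated data with independent noise for each probe set. Such a check does not cover shifts that many probe sets of an array share. An exact two-sided permutation test of 1 gene on 4 arrays cannot go below p = 0.333, so none was used. Precision is limited by the number of arrays.

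The members and lists were chosen with earlier results of these data known. Every member is named, with full values for the 5 highest, the 5 lowest, the polymerase genes, accD, clpP, matK and the ycf genes; values of the remaining members were added after they were seen. Alternatives were other offsets, scalings, prior variances and thresholds, a filter on the lowest 40% of mean signals, a replicate block and each array left out. Deviations from the group means correlated at -0.131 between samples with the same number, so the numbers were taken as names only.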

Additional observations from a re-analysis of the deposited data

How the results depend on the processing

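All 24 genes had positive differences in every alternative run (22 genes with the filter on low signal), and 0 of 334 gene comparisons reversed. Only the other scalings could have reversed a sign. The filter, the replicate blocks, the prior variance and the threshold left each difference unchanged. Other offsets and leaving 1 array out could not reverse any, since no member had overlapping groups. Of the 334 comparisons 238 kept their call or lack of one, 70 lost it and 26 gained it. Of the members, 16 were called higher; this count was 22 of the 22 that passed the filter on low signal, 20 with an offset of 4, 9 with an offset of 64, 14 with spike-in scaling, 12 without a trended prior, and 0 at an adjusted p under 0.01 (23 at an unadjusted p under 0.05 in limma). With 1 array left out it lay between 0 and 20, and was 0 in both fits that drop a whole-root array, where 1 residual degree of freedom comes from the sorted-protoplast arrays. Median differences of the members stayed between 2.46 and 3.46, and the median of the 5 other genes ranged from 2.53 to 3.82 when 1 array was left out.

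Over all probe sets, 394 were called higher and 137 lower. The counts were 870 and 561 with the filter (13647 tested), 255 and 61 with an offset of 64, 255 and 238 with spike-in scaling, 13 and 2 at an adjusted p under 0.01, and 216 lower with an offset of 4. With 1 array left out they ranged from 0 to 530 higher and from 0 to 111 lower. Of the members, 0 had a name that marks shared probes, and each gene had 1 probe set. Dropping such probe sets, or keeping 1 per gene, thus could not change the members and checks nothing. Replicate numbers share only a number. With the number as a replicate block 20 members were called higher, and with crossed replicate numbers, chosen after seeing the data, 22 were, with 623 higher and 263 lower in all; the cause of these moves was not tested. Signals under the offset made up 19.6% to 22.1% of values per array and limit what low genes such as rpoB can show.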
